A study of Mus musculus with 40 samples.

Results

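The comparison of MPTP-Veh with Con in the midbrain used 8 of the 40 libraries of the series, 4 per group, chosen by the treatment and tissue that their labels give. The study asked how SUEHP, a herbal extract injected at acupoints, acts on pain in mice given MPTP, and sequenced polyadenylated RNA from the midbrain and the spinal cord of 5 groups. Both groups compared here were male C57BL/6N mice labelled as 8 weeks old. Con mice were injected intraperitoneally with saline on the same schedule. MPTP-Veh mice received 4 intraperitoneal injections of MPTP at 20 mg/kg on a single day, 2 h apart. Per the paper, both groups were also given saline in place of SUEHP at the acupoint GB34 near the head of the fibula. These 4 injections began a week after MPTP. No gene was deleted and no transgene was carried. The labels give no borders for the dissected midbrain and do not say whether each library came from a single mouse, so p-values measure only the spread between these libraries, which may be technical. RNA was read from whole tissue, in which fewer cells of a type and less RNA per cell cannot be told apart.

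MPTP crosses into the brain and is turned into MPP+ by monoamine oxidase B, mainly in astrocytes. MPP+ enters dopaminergic neurons through the dopamine transporter Slc6a3 and blocks complex I of the mitochondrial respiratory chain, which is why the toxin is used to model Parkinson's disease. The midbrain holds the dopaminergic neurons of the substantia nigra and the ventral tegmental area, and it adjoins the hypothalamus, thalamus, hippocampus, cerebellum and pons.

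Library totals ran from 15020767 to 16295834 estimated counts in Con and from 11958200 to 15986455 in MPTP-Veh. MPTP-Veh replicate 4 stood apart from the other 7 libraries. It had the lowest total, and 1.354% of its counts came from mitochondrially encoded genes against 10.64% to 16.94% in the others. Its Spearman correlation with the per-gene median of the other midbrain libraries was 0.8875, against 0.9871 to 0.9936 for the other 7. The edgeR model covered all 20 midbrain libraries, and log2 fold changes and counts over lists are given with and without this library. The markers of the midbrain were present: all 26 genes of the dopaminergic list passed the filter on low counts, and Th lay between 17 and 110 CPM (counts scaled to a common library size, with TMM factors) in the 8 libraries.

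Of 16629 genes tested with edgeR's quasi-likelihood test, 3 fell in MPTP-Veh (0.018% of the genes tested) and none rose (0%), where a call needed more than a 1.5-fold difference and an adjusted p under 0.05. The 3 genes were Hpcal4, Cemip and Smad3. Without MPTP-Veh replicate 4, when 16831 genes were tested, a single gene fell, Shisa7 (0.00594%), and none rose (0%). At an unadjusted p below 0.05, 2589 genes were higher (15.6%) and 1356 lower (8.15%) over all 8 libraries, and 896 were higher (5.32%) and 1145 lower (6.8%) without replicate 4. For the same contrast in the same 20 libraries, DESeq2 called 289 genes higher and 157 lower, and limma-voom called 19 higher and 71 lower when libraries were weighted by their quality. MPTP-Veh replicate 4 was the extreme library of its group for 279 of the 289 and 116 of the 157 DESeq2 calls, and 225 and 156 of them had an unadjusted edgeR p below 0.05 in the same direction without it, as did 89 of the 90 limma calls. The 3 genes that fell were among those called lower by both of these tools. None of the 3 passed when Con replicate 1, 2 or 4 or MPTP-Veh replicate 1, 2 or 4 was left out, although over all 18 alternatives the log2 fold change stayed between -1.22 and -0.86 for Hpcal4, -1.28 and -0.948 for Cemip and -1.11 and -0.817 for Smad3. By contrast, without MPTP-Veh replicate 3, when replicate 4 remained, 827 genes were called higher and 266 lower.

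The stretches of 150 bases before the start sites of the 4 genes are shown so that the genes can be placed and compared. They are from RefSeq on build GRCm38.p6 and are written 5′ to 3′ along each gene, whereas the counts were made on GRCm39. All 4 symbols matched the RefSeq table. Hpcal4 lies at chr4:123183354-123183503 on the plus strand, Cemip at chr7:84086506-84086655, Smad3 at chr9:63757995-63758144 and Shisa7 at chr7:4844697-4844846, each of these on the minus strand. Capitals mark CCAAT in Hpcal4 and TATAAA in Cemip.
Hpcal4: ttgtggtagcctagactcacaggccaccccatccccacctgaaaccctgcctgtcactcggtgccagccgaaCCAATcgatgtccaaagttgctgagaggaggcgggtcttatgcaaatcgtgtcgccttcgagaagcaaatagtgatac
Cemip: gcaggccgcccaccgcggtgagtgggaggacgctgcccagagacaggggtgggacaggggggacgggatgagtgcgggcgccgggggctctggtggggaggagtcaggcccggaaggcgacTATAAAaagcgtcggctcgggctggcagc
Smad3: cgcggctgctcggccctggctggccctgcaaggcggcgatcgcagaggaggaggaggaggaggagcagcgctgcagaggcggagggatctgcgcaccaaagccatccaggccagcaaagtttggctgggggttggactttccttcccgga
Shisa7: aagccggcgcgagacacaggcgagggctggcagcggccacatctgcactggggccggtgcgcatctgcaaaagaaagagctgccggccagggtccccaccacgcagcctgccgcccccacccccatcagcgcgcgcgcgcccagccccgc

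These windows of 250 bases before to 50 bases after the start were searched on both strands for 5 short motifs. Hpcal4 held CCAAT starting 78 bases before its start, and Shisa7 held it on the opposite strand at the far end of its window, outside the stretch shown. CCAAT occurred in 37.4% of all 32851 windows. Cemip held TATAAA, the core of the TATA box, starting 29 bases before its start, as did 13.6% of windows at any position. None of the 4 windows held the cyclic AMP response element TGACGTCA (1.79% of windows), the AP-1 site TGANTCA (7.81%) or the EGR site GCGTGGGCG (0.612%). A match is a description of these letters only.

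Hpcal4 encodes a calcium-sensing protein of the visinin-like family found in neurons. Its level in the Con libraries was 168, 306, 180 and 217 CPM, and in the MPTP-Veh libraries 101, 91.6, 133 and 87.8 CPM. The groups did not overlap, with Con replicate 2 the highest and MPTP-Veh replicate 4 the lowest. The log2 fold change was -1.07 (SE 0.175, adjusted p = 0.0408 by edgeR), and without replicate 4 it was -1.002 (SE 0.179, adjusted p = 0.0745).

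Cemip encodes a protein that binds and breaks down hyaluronan, a sugar polymer of the matrix between cells. It was measured at 5.28, 8.17, 4.61 and 4.53 CPM in Con and at 2.72, 2.16, 2.77 and 2.26 CPM in MPTP-Veh. Every MPTP-Veh library lay below every Con library, and replicate 4 was within the range of its group. For Cemip edgeR gave a log2 difference of -1.18 (SE 0.194, adjusted p = 0.0408), and without replicate 4 it was -1.15 (SE 0.208, adjusted p = 0.0745).

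Smad3 encodes a transcription factor that carries the signal of TGF-beta and activin receptors to the nucleus. Con libraries gave 20.1, 27.9, 19.7 and 21.7 CPM, and MPTP-Veh libraries gave 11.4, 11.2, 14.6 and 8.38 CPM. The groups were again separate, and replicate 4 was the lowest of its group. On the log2 scale the difference was -0.97 (SE 0.155, adjusted p = 0.0408), and without replicate 4 it was -0.85 (SE 0.139, adjusted p = 0.0617).

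Shisa7, an auxiliary protein of receptors at synapses, was at 72.6, 84.7, 79.3 and 79.2 CPM in Con and at 46.1, 46.8, 58.1 and 66.4 CPM in MPTP-Veh. Replicate 4 was here the MPTP-Veh library nearest to Con, and the groups did not overlap with or without it. The log2 fold change was -0.65 without it (SE 0.0930, adjusted p = 0.0209) and -0.54 with it (SE 0.111, adjusted p = 0.0931).

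**Figure D1:**
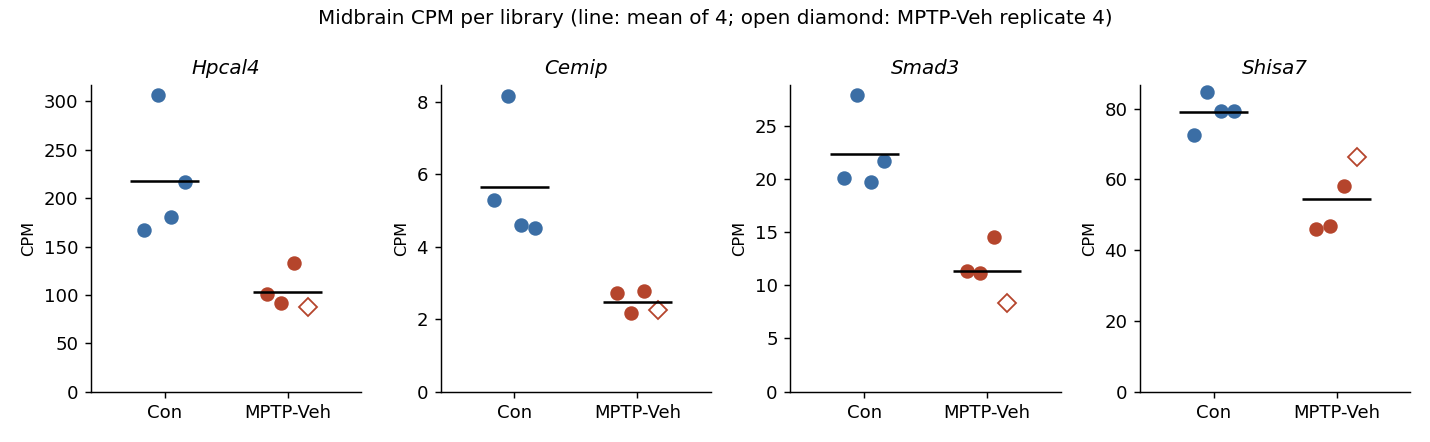
CPM of Hpcal4, Cemip, Smad3 and Shisa7 in each midbrain library, with Con in blue and MPTP-Veh in red, the group mean of 4 as a line and MPTP-Veh replicate 4 as an open diamond. In each panel all 4 MPTP-Veh points lie below all 4 Con points.

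Con replicate 2 was the highest library for all 4 genes. It was also the highest for the summed markers of the cortex and hippocampus, at 2889 CPM against 1288 to 2022 CPM in the other Con libraries and 874 to 1285 CPM in MPTP-Veh, and the part of these markers in the 4 results was not tested.

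The 3 groups that received SUEHP after MPTP gave values that can be set beside these without a comparison being made. Hpcal4 lay between 86.1 and 136 CPM over those 12 libraries, below the lowest Con library at 168. Smad3 lay between 12.0 and 16.9 CPM, and Cemip between 2.60 and 4.77 CPM, where the highest of them passed the lowest Con value of 4.53. Shisa7 lay between 43.6 and 57.2 CPM. In the spinal cord, Hpcal4 averaged 63.0 CPM ± 6.85 (SD, n = 4) in Con and 66.2 ± 1.69 in MPTP-Veh. Its log2 fold change there was 0.07 (SE 0.0588, adjusted p = 0.635 by edgeR). For Smad3 in the spinal cord it was -0.08 ± 0.0726 SE (adjusted p = 0.685). The difference between the tissues was not tested.

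How far the comparison rested on 1 library was seen in the genes with an unadjusted p below 0.05 and a fold change above 1.5. There were 1437 such genes higher in MPTP-Veh and 544 lower over all libraries, and 178 and 377 without replicate 4. The 128 higher genes shared by both sets were 8.91% of the first and 71.9% of the second. The 283 shared lower genes were 52.0% of the first set and 75.1% of the second. Replicate 4 was the highest MPTP-Veh library for 1360 of the 1437 higher genes and the lowest for 383 of the 544 lower genes. The median log2 fold change over all genes tested was 0.000129 with replicate 4 and 0.000224 without it.

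**Figure D2:**
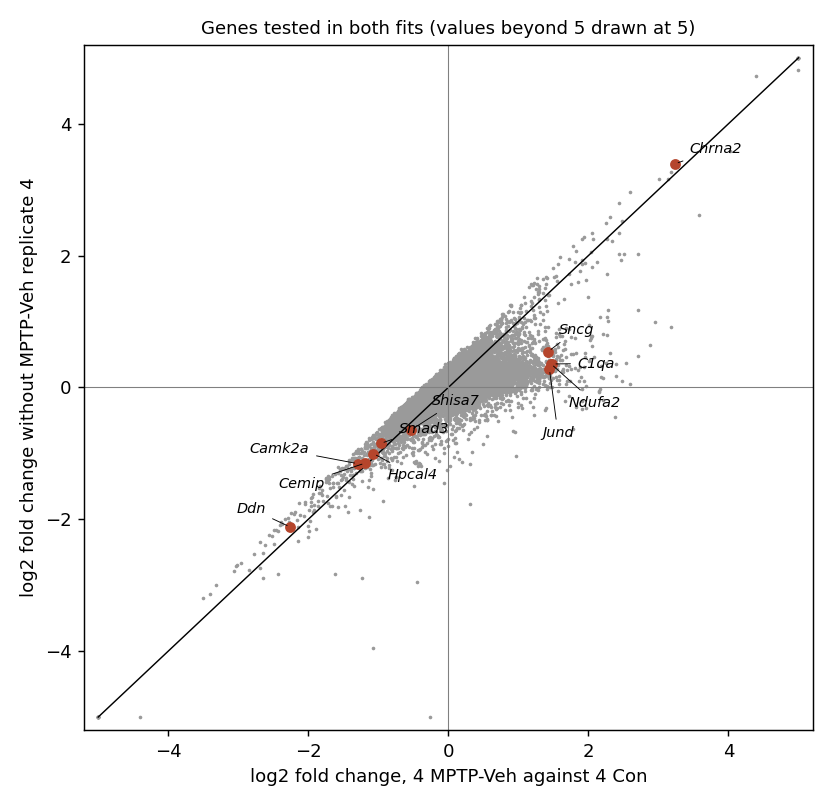
Log2 fold change of the 16629 genes tested in both fits, over all libraries (horizontal axis) and without MPTP-Veh replicate 4 (vertical axis), with 21 values beyond 5 drawn at 5 and the line of equality in black. Hpcal4, Cemip, Smad3, Ddn and Camk2a lie near the line, whereas Ndufa2, C1qa and Jund lie near 1.5 on the horizontal and below 0.4 on the vertical axis.

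Named by a fixed rule, further genes had groups that did not overlap and an unadjusted p below 0.05 with and without replicate 4. Over all genes tested, the MPTP-Veh libraries lay entirely above Con for 1060 genes (6.37%) and entirely below for 1002 (6.03%). With a mean of at least 1 CPM, a fold change above 1.5 and the same direction at p below 0.05 without replicate 4, 262 were higher and 263 lower. None of the genes named in this and the next paragraph passed the threshold of adjusted p in either fit. Among the lower genes were Ddn, Chrm1 and Camk2a. Ddn, which encodes dendrin, was at 95.4, 251, 95.2 and 106 CPM in Con and at 34.9, 18.0, 41.8 and 20.0 CPM in MPTP-Veh (edgeR log2 difference -2.26 ± 0.430 SE, adjusted p = 0.0931, and -2.12 without replicate 4). Chrm1, the M1 muscarinic acetylcholine receptor, was at 33.7, 53.3, 16.3 and 29.1 CPM in Con and at 9.88, 6.61, 12.1 and 5.08 CPM in MPTP-Veh. Camk2a, the alpha subunit of calcium/calmodulin-dependent kinase II, was at 710, 1200.0, 534 and 611 CPM in Con and at 339, 311, 378 and 222 CPM in MPTP-Veh. For each of these 3 genes Con replicate 2 was the highest library by a wide margin. That the other 3 Con libraries lay above every MPTP-Veh library follows from the rule by which the genes were named. Sgk1, a kinase induced by glucocorticoids, had little spread, with 45.9 to 54.7 CPM in Con and 32.0 to 35.5 CPM in MPTP-Veh. For Nid2, a basement membrane protein, the log2 difference was -1.16 ± 0.201 SE (adjusted p = 0.0653), and for Entrep2 and Sidt1 it was -0.90 and -0.70. Without replicate 4 these were -1.02, -0.72 and -0.59.

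Among the higher genes, Chrna2, a subunit of nicotinic acetylcholine receptors, was at 0.573, 0.238, 0.126 and 0.122 CPM in Con and at 2.65, 4.38, 1.51 and 1.6 CPM in MPTP-Veh, and edgeR gave a log2 difference of 3.23 with an SE of 0.658 and an adjusted p of 0.0931, or 3.39 without replicate 4. Ucn, the peptide urocortin of the Edinger-Westphal nucleus in the midbrain, was at 0.0637, 0, 0 and 0.428 CPM in Con and at 0.856, 7.33, 2.77 and 17.5 CPM in MPTP-Veh. Both were low in every Con library, and Ucn was listed at 0 in 2 of them and varied widely among the MPTP-Veh libraries. Npas3, a transcription factor of neural precursors and interneurons, was at 35.5 to 41.7 CPM in Con, at 55.3 to 65.8 CPM in 3 MPTP-Veh libraries and at 112 CPM in replicate 4. TrnK and TrnQ, tRNA genes of the mitochondrial genome, had log2 fold changes of 2.28 and 2.70, which were 1.18 and 1.18 without replicate 4. The other higher genes named by the rule were Gm20172, C030029H02Rik, Tmem17, Atp6v0c-ps2 and Slc25a34, with log2 fold changes from 0.61 for C030029H02Rik to 1.65 for Gm20172, and from 0.50 for Atp6v0c-ps2 to 1.34 for Gm20172 without replicate 4. Atp6v0c-ps2 is named as a pseudogene of a proton pump subunit, and reads shared with that gene could be split between them.

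Markers of regions next to the midbrain differed in level between libraries of both groups. The list of cortex and hippocampus genes summed to 2022, 2889, 1288 and 1640 CPM in Con and to 1076, 874, 1108 and 1285 CPM in MPTP-Veh, and Emx1 alone of its 20 members did not pass the filter over all libraries. Of the 19 tested, none was higher at an unadjusted p below 0.05 and 12 were lower, against 15.6% and 8.15% of all genes, and the median log2 fold change was -0.70. Without replicate 4, none of 20 was higher and 14 were lower, against 5.32% and 6.8% of all genes, and the median was -0.98. Slc17a7, the vesicular glutamate transporter of cortical neurons, was at 175, 376, 75.9 and 181 CPM in Con and at 59.2, 55.1, 59.7 and 47.5 CPM in MPTP-Veh. Tbr1, a transcription factor of deep cortical layers, was at 39.7, 11.7, 7.20 and 5.51 CPM in Con and at 2.96, 1.96, 2.17 and 1.79 CPM in MPTP-Veh. Fezf2, which specifies cortical projection neurons, ranged from 3.41 to 12.9 CPM in Con and from 0.376 to 3.37 CPM in MPTP-Veh. The 3 genes did not pass the adjusted threshold (adjusted p = 0.130 for each, and 0.165 to 0.208 without replicate 4). Con replicate 1 led for Tbr1 and Con replicate 2 for Slc17a7, so that the Con libraries did not share an order for these markers. Ddn, Chrm1 and Camk2a, above, had the same highest library as Slc17a7. Camk2a is itself a member of the list and made 1200.0 of the 2889 CPM in that library, and what part the forebrain markers had in Ddn and Chrm1 was not tested.

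Choroid plexus genes had the lowest median of the 34 lists, -1.55 over 8 tested genes and -1.58 without replicate 4. Their sum was 46.7, 1287, 109 and 596 CPM in Con and 41.4, 47.8, 53.5 and 63.0 CPM in MPTP-Veh, so that Con replicate 1 was as low as the MPTP-Veh libraries. None of the 8 was higher at p below 0.05 and 6 were lower, with and without replicate 4, against 15.6% and 8.15% of all genes, and 5.32% and 6.8% without replicate 4. Ttr, transthyretin, made most of the sum in Con replicates 2, 3 and 4 and a small part of it elsewhere, at 3.25, 1171, 66.3 and 524 CPM in Con and at 1.71, 12.1, 6.03 and 14.9 CPM in MPTP-Veh. Kl, which encodes Klotho, was at 5.67 to 32.0 CPM in Con and at 3.11 to 5.30 CPM in MPTP-Veh. No marker of any list was at 0 in all 8 libraries. Leptomeningeal fibroblast genes summed to 369 to 650.0 CPM in Con and to 194 to 462 CPM in MPTP-Veh, and none of the 13 was higher and 3 were lower at p below 0.05, against 15.6% and 8.15% of all genes, with a median log2 fold change of -0.61. Without replicate 4 none was higher and 2 were lower, against 5.32% and 6.8%, and the median was -0.71.

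Markers of serotonergic neurons, which lie in the raphe nuclei between midbrain and pons, had the highest median, 1.54 over 7 genes and 0.76 without replicate 4. Their sum was 98.4, 52.0, 47.3 and 68.8 CPM in Con and 145, 145, 91.1 and 303 CPM in MPTP-Veh, and MPTP-Veh replicate 3 lay within the Con range. With and without replicate 4, 4 of the 7 were higher at p below 0.05, against 15.6% and 5.32% of all genes. Tph2, the enzyme that makes serotonin in the brain, was at 20.9, 9.96, 0.506 and 9.91 CPM in Con and at 49.3, 54.4, 14.4 and 110 CPM in MPTP-Veh. Fev, the transcription factor Pet1 of these neurons, was at 0.179 to 1.27 CPM in Con and at 0.964 to 7.72 CPM in MPTP-Veh. Gata3, which raphe and other hindbrain and midbrain neurons express, was at 12.6 to 29.1 CPM in Con and at 30.4 to 133 CPM in MPTP-Veh. The log2 fold change of Tph2 was 2.46 (SE 0.861, adjusted p = 0.134) and 1.93 without replicate 4 (adjusted p = 0.354).

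Genes of the hypothalamus and pituitary were uneven between single libraries. Pomc, the precursor of adrenocorticotropic hormone, was at 656 CPM in MPTP-Veh replicate 1 and at 0.716 to 6.26 CPM in the other 7 libraries. Prl, prolactin, was at 30.7 CPM in the same library, at 1.24 and 2.71 CPM in replicates 2 and 3, and at 0 in MPTP-Veh replicate 4 and 3 Con libraries. Npy, neuropeptide Y, was lower in every MPTP-Veh library, at 7.31, 8.18, 10 and 6.31 CPM against 12.5, 20.2, 13.1 and 11.4 CPM in Con (edgeR log2 difference -0.84 ± 0.188 SE, adjusted p = 0.118, and -0.75 without replicate 4). The sum of the 16 genes, 4 of which did not pass the filter, was 32.4 to 511.5 CPM in Con and 114 to 819 CPM in MPTP-Veh. Of the 12 tested, 4 were higher and 3 lower at an unadjusted p below 0.05, against 15.6% and 8.15% of all genes. The counts were the same without replicate 4, against 5.32% and 6.8% of all genes. The median log2 fold change was -0.90, and -0.76 without replicate 4. Isl1, a transcription factor of motor and hypothalamic neurons that stood in the cholinergic list, was at 0.573, 3.28, 9.98 and 1.71 CPM in Con and at 0.622, 0.196, 0.843 and 0.0941 CPM in MPTP-Veh. Whether the amounts of neighbouring tissue in these libraries had a part in the other results was not tested.

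**Figure D3:**
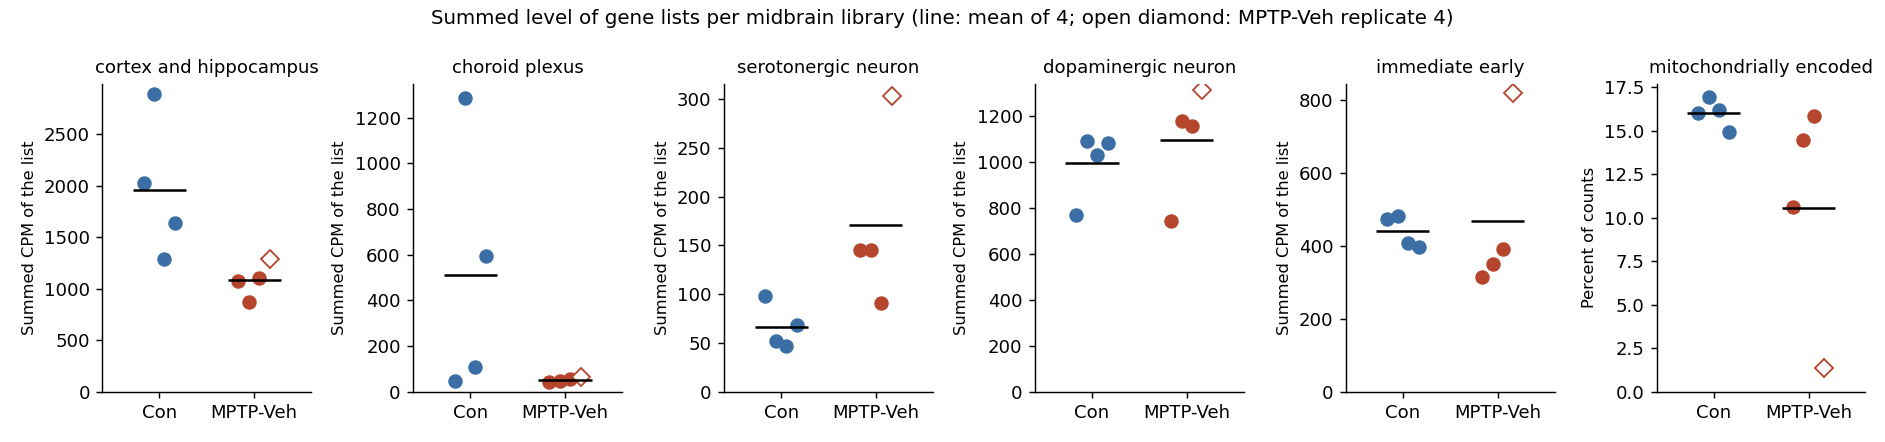
Summed CPM of 5 gene lists and the percent of counts from mitochondrially encoded genes in each midbrain library, Con in blue and MPTP-Veh in red, with the mean of 4 as a line and MPTP-Veh replicate 4 as an open diamond. The cortex and hippocampus sum is at or above 1288 CPM in Con and at or below 1285 CPM in MPTP-Veh, and the choroid plexus sum is spread from 46.7 to 1287 CPM within Con alone.

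The summed level of the 26 dopaminergic genes overlapped between the groups, at 767 to 1091 CPM in Con and 740.4 to 1310.0 CPM in MPTP-Veh. Th, tyrosine hydroxylase, the first enzyme of dopamine synthesis, was at 26.4, 58.8, 48.3 and 57.1 CPM in Con and at 17.0, 70.3, 60.2 and 110 CPM in MPTP-Veh. The groups overlapped, with the lowest value in MPTP-Veh replicate 1 and the highest in replicate 4. The log2 fold change was 0.43 (95% interval -0.49 to 1.35; exact two-sided permutation p = 0.400, 4 against 4), and it was 0.05 without replicate 4 (exact permutation p = 0.8286). The smallest two-sided p that these designs allow is 0.0286. Slc6a3, the dopamine transporter, was at 44.4, 105, 69.5 and 97.8 CPM in Con and at 17.7, 91.0, 92.2 and 57.0 CPM in MPTP-Veh. Its log2 fold change was -0.29 (95% interval -1.32 to 0.74; exact permutation p = 0.514), and it was -0.24 without replicate 4 (exact permutation p = 0.6). Replicate 1 of MPTP-Veh and replicate 1 of Con were the lowest of their groups for both genes.

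Slc18a2, which loads monoamines into vesicles, averaged 45.0 CPM ± 12.6 (SD, n = 4) in Con and 52.0 ± 15.4 in MPTP-Veh. Ddc, which makes dopamine from L-DOPA, averaged 45.8 ± 9.23 and 68.5 ± 25.8 CPM. Nr4a2, the transcription factor Nurr1, averaged 24.0 ± 6.95 and 17.2 ± 9.01 CPM, and Pitx3, which these neurons need to survive, 0.571 ± 0.265 and 1.35 ± 0.990 CPM. Without replicate 4 the MPTP-Veh mean was 57.7 ± 17.3 CPM for Ddc, 20.5 ± 7.50 for Nr4a2 and 0.864 ± 0.174 for Pitx3. Their log2 fold changes were then 0.33, -0.22 and 0.59 in place of 0.58, -0.47 and 1.195. In exact permutation tests of Slc18a2, Ddc, Nr4a2 and Pitx3, p ran from 0.114 for Pitx3 to 0.514 for Slc18a2. Without replicate 4 it ran from 0.2 for Pitx3 to 0.514 for Nr4a2. Kcnj6, the potassium channel subunit GIRK2, was at 69.0, 95.5, 73.6 and 76.1 CPM in Con and at 59.0, 58.3, 69.6 and 38.5 CPM in MPTP-Veh (edgeR log2 difference -0.48 ± 0.141 SE, adjusted p = 0.130, and -0.33 without replicate 4). It was the only one of the 26 genes that was lower at an unadjusted p below 0.05, with and without replicate 4. En1, a transcription factor that maintains these neurons, was at 8.59 to 11.5 CPM in Con and at 14.9, 19.8, 15.1 and 46.3 CPM in MPTP-Veh, and it was the single gene of the list higher at p below 0.05 in both fits. Sncg, gamma-synuclein, was at 192 CPM in replicate 4 and at 41.9 to 46.6 CPM in the other 3 MPTP-Veh libraries, against 23.3 to 37.6 CPM in Con. Over the list, 5 genes were higher and 1 lower at p below 0.05, against 15.6% and 8.15% of all genes. Without replicate 4 the counts were 1 and 1, against 5.32% and 6.8%, and the medians were 0.25 and 0.16, so that the counts without it were near those over all genes.

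**Figure D4:**
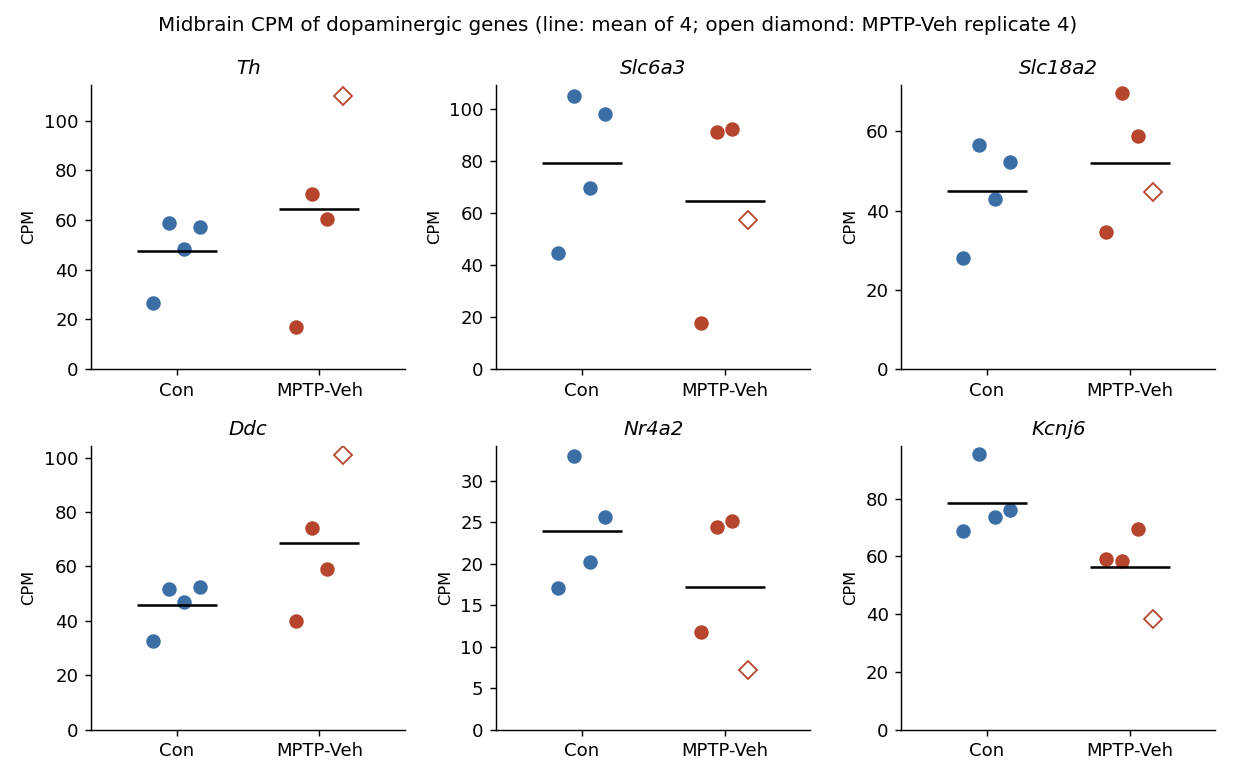
CPM of Th, Slc6a3, Slc18a2, Ddc, Nr4a2 and Kcnj6 in each midbrain library, Con in blue and MPTP-Veh in red, with the mean of 4 as a line and MPTP-Veh replicate 4 as an open diamond. The groups overlap in every panel, and MPTP-Veh replicate 1 has the lowest Th and Slc6a3 of all 8 libraries.

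Maob, monoamine oxidase B, was at 33.0, 34.0, 31.5 and 33.4 CPM in Con and at 39.5, 36.8, 39.2 and 38.3 CPM in MPTP-Veh. All 4 MPTP-Veh libraries were above Con, at a log2 fold change of 0.22 (95% interval -0.08 to 0.52), also 0.22 without replicate 4, and the exact permutation p of 0.0286 was the smallest the design can give, while the adjusted p of edgeR was 0.332. Of the 12 tested genes of MPTP and MPP+ handling, 1 was higher and 1 lower at an unadjusted p below 0.05, against 15.6% and 8.15% of all genes. Without replicate 4 none was higher and none lower, against 5.32% and 6.8% of all genes.

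The mitochondrial genome encodes 13 proteins of the respiratory chain. Together they took 16.02, 16.94, 16.22 and 14.96% of the counts in Con and 10.64, 14.45, 15.87 and 1.354% in MPTP-Veh. The groups overlapped at MPTP-Veh replicate 3, and the means of 16.0% ± 0.818 (SD, n = 4) and 10.6% ± 6.53 differed with an exact two-sided permutation p of 0.0571. Without replicate 4 the mean was 13.7% ± 2.70 (p = 0.0857, exact permutation, 3 against 4). Of the 13 genes 12 had a log2 fold change below 0, and 11 without replicate 4, and the median was -0.57, or -0.19 without replicate 4. COX1, the catalytic subunit of complex IV, averaged 38020 CPM ± 2501 in Con and 31390 ± 5836 in the MPTP-Veh libraries without replicate 4, which itself held 2532 CPM. For ND4, a core subunit of complex I, the log2 difference was -0.66 ± 0.433 SE (adjusted p = 0.337), and -0.29 without replicate 4. ND6, the complex I subunit transcribed from the light strand, had a log2 fold change above 0 with and without replicate 4, and was at 62.5, 86.3, 79.9 and 86.3 CPM in Con and at 123, 96.5, 78.1 and 149 CPM in MPTP-Veh (log2 fold change 0.50, adjusted p = 0.134, exact permutation p = 0.114). Without replicate 4 the log2 fold change was 0.33 (adjusted p = 0.396, exact permutation p = 0.2).

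Of 37 nuclear genes of complex I, 30 had a log2 fold change above 0, and 36 without replicate 4. At an unadjusted p below 0.05, 17 were higher and none lower, against 15.6% and 8.15% of all genes, and 10 were higher and none lower without replicate 4, against 5.32% and 6.8%. The median log2 fold change was 0.28, and 0.15 without replicate 4. Ndufc1, a small accessory subunit, was at 47.2, 48.3, 45.9 and 47.6 CPM in Con and at 61.2, 54.2, 55.4 and 73.4 CPM in MPTP-Veh (edgeR log2 difference 0.37 ± 0.0926 SE, adjusted p = 0.130, and 0.27 without replicate 4). Ndufa9 was at 73.5 to 76.7 CPM in Con and at 89.4, 90.7, 90.5 and 166 CPM in MPTP-Veh. Ndufa2 was at 46.4 to 52.0 CPM in Con, at 58.9 to 68.2 CPM in 3 MPTP-Veh libraries and at 355 CPM in replicate 4, so its log2 fold change was 1.46 with that library and 0.36 without it. No nuclear complex I gene passed the adjusted threshold. Genes for cytosolic ribosomal proteins had 20 of 50 higher and 1 lower at p below 0.05, against 15.6% and 8.15% of all genes, with a median of 0.17. Without replicate 4 the count was 4 higher and none lower, against 5.32% and 6.8%, with a median of 0.08.

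Among 17 genes of inherited Parkinson's disease, 5 were higher and 1 lower at p below 0.05, against 15.6% and 8.15% of all genes, and 1 and 1 without replicate 4, against 5.32% and 6.8%, with medians of -0.09 and 0.00113. Park7, which encodes the redox-sensitive protein DJ-1, was at 78.5 to 85.4 CPM in Con, at 107, 92.1 and 87.8 CPM in MPTP-Veh replicates 1 to 3 and at 329 CPM in replicate 4. Chchd2, a protein between the mitochondrial membranes, was at 150.1 to 164 CPM in Con and at 215, 179, 182 and 427 CPM in MPTP-Veh, and kept an unadjusted p of 0.00498 by edgeR without replicate 4. Of 21 NRF2 and antioxidant genes, 3 were higher and 5 lower at p below 0.05, and 1 and 3 without replicate 4, against the same shares. Nqo1, a quinone reductase and classic NRF2 target, was at 4.97, 4.77, 5.12 and 5.201 CPM in Con and at 3.11, 3.60, 3.56 and 3.29 CPM in MPTP-Veh. The groups did not overlap and each had little spread (edgeR log2 fold change -0.56, SE 0.116, adjusted p = 0.0931, and -0.55 without replicate 4). Sod1, cytosolic superoxide dismutase, was at 162 to 175 CPM in Con and at 223, 198, 197 and 395 CPM in MPTP-Veh.

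Glial markers gave no shared direction. Of 16 microglia genes, 7 were higher and 2 lower at an unadjusted p below 0.05 over all libraries, against 15.6% and 8.15% of all genes. Without replicate 4 the counts were 2 and 2, against 5.32% and 6.8%, and the medians were 0.16 and 0.08. C1qa, a complement protein made by microglia, was at 13.6 to 16.8 CPM in Con, at 17.2 to 21.4 CPM in 3 MPTP-Veh libraries and at 109 CPM in replicate 4. Itgam, which encodes CD11b, was at 11.27, 13.78, 15.04 and 11.20 CPM in Con and at 11.13, 11.19, 11.09 and 5.18 CPM in MPTP-Veh. Its groups did not overlap, by a margin in the second decimal (exact permutation p = 0.0286, and 0.171 without replicate 4), and its log2 fold change was -0.40, or -0.20 without replicate 4. Aif1, which encodes Iba1, averaged 4.38 CPM ± 1.01 in Con and 8.08 ± 6.58 in MPTP-Veh (exact permutation p = 0.314). Without replicate 4, at 17.9 CPM, the mean was 4.81 ± 0.916 (exact permutation p = 0.6), and the log2 fold change was 0.13 in place of 0.87. Gfap, the filament of reactive astrocytes, was at 296, 348, 254 and 354 CPM in Con and at 259, 305, 228 and 970 CPM in MPTP-Veh, and its log2 fold change was 0.49 with replicate 4 and -0.25 without it. Slc1a3, the astrocyte glutamate transporter GLAST, was at 261 to 317 CPM in Con and at 187, 206, 229 and 101 CPM in MPTP-Veh (edgeR log2 difference -0.67 ± 0.182 SE, adjusted p = 0.130, and -0.48 without replicate 4). Of 15 astrocyte genes, 3 were higher and 3 lower, against 15.6% and 8.15% of all genes, and 2 and 3 without replicate 4, against 5.32% and 6.8%.

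Opalin, a myelin protein of oligodendrocytes, was at 40.1 to 51.0 CPM in Con and at 61.6, 65.4, 56.3 and 79.4 CPM in MPTP-Veh. Pdgfra, the receptor that marks oligodendrocyte precursors, had a log2 fold change of -0.44, and -0.25 without replicate 4. Of 17 oligodendrocyte genes, 3 were higher and 1 lower at p below 0.05, against 15.6% and 8.15% of all genes, and 2 and 1 without replicate 4, against 5.32% and 6.8%, with a median of 0.11 both times. Of 20 inflammation genes, 8 cytokines and chemokines, among them Tnf, Il6 and Il1b, did not pass the filter on low counts. Of the 12 tested, 1 was higher and 4 lower at p below 0.05, against 15.6% and 8.15% of all genes, and without replicate 4 none was higher and 5 were lower, against 5.32% and 6.8%. Nlrp3, the sensor of an inflammasome, was at 0.509 to 0.918 CPM in Con and at 0.181 to 0.376 CPM in MPTP-Veh (edgeR log2 difference -1.35 ± 0.476 SE, adjusted p = 0.136, and -1.498 without replicate 4). Mapk14, the kinase p38 alpha, averaged 52.3 CPM ± 3.88 in Con and 59.2 ± 25.3 in MPTP-Veh (exact permutation p = 0.914), with a log2 fold change of 0.18, which was -0.16 without replicate 4 (exact permutation p = 0.2).

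Immediate early genes, which neurons switch on within minutes of activity, included 2 higher and 5 lower genes of 18 at p below 0.05, against 15.6% and 8.15% of all genes, and none higher and 8 lower without replicate 4, against 5.32% and 6.8%. The median was -0.31 and -0.47. Egr3, a zinc-finger transcription factor, was at 30.9, 31.7, 15.2 and 17.7 CPM in Con and at 6.85, 3.66, 12.2 and 5.93 CPM in MPTP-Veh (edgeR log2 difference -1.73 ± 0.361 SE, adjusted p = 0.0931, and -1.65 without replicate 4). Fosl2 and Egr4, picked after their values were seen, also had every MPTP-Veh library below Con, with log2 fold changes of -0.77 and -1.04, and of -0.78 and -1.03 without replicate 4. Fos was at 17.3, 10.6, 19.7 and 16.6 CPM in Con and at 6.69, 11.8, 13.2 and 11.8 CPM in MPTP-Veh, groups that overlapped at Con replicate 2 (exact permutation p = 0.114). Nr4a3 averaged 21.8 CPM ± 15.4 in Con and 7.43 ± 4.16 in MPTP-Veh. Jund was at 487 CPM in replicate 4 and at 62.1 to 86.8 CPM elsewhere. Several of these genes are expressed strongly in the cortex and hippocampus, whose markers were lower as given above, and the part of those markers in this list was not tested.

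The lists for the pathways of Smad3, Hpcal4 and Cemip were made with these genes known to have fallen, and each count of lower genes includes the gene itself. Of 29 TGF-beta and SMAD genes, 3 were higher and 6 lower at p below 0.05, against 15.6% and 8.15% of all genes, and none higher and 5 lower without replicate 4, against 5.32% and 6.8%, with medians of -0.17 and -0.10. Tgfbr2, the type II TGF-beta receptor, averaged 26.8 CPM ± 2.42 in Con and 20.1 ± 3.15 in MPTP-Veh. Ski, a nuclear repressor of SMAD proteins, was at 89.5 to 119 CPM in Con and at 75.7 to 86.8 CPM in MPTP-Veh. Among 14 neuronal calcium sensor genes, 1 was higher and 4 lower, against the same shares, and none and 4 without replicate 4, with medians of -0.23 and 0.00696. Kcnip2, which sets the gating of A-type potassium channels, averaged 33.8 ± 19.1 and 13.8 ± 6.10 CPM, and Ncald 280.2 ± 26.9 and 220 ± 34.4 CPM. Of 16 genes of hyaluronan and the perineuronal matrix, 1 was higher and 3 lower, against the same shares, and none and 2 without replicate 4, with a median of -0.02 both times. Tnr, tenascin-R, was at 121 to 128 CPM in Con and at 88.2, 93.6, 109 and 25.6 CPM in MPTP-Veh, whereas Bcan, brevican, was at 184 to 196 CPM in Con and at 198 to 227 CPM in MPTP-Veh outside replicate 4, where it was at 758 CPM.

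Genes of neurotrophic and cannabinoid signalling did not pass the adjusted threshold. Bdnf, brain-derived neurotrophic factor, averaged 19.3 CPM ± 2.93 in Con and 16.1 ± 4.03 in MPTP-Veh (exact permutation p = 0.229, and 0.371 without replicate 4). Ntf3, neurotrophin 3, was lower in every MPTP-Veh library, at 0.700 to 1.93 CPM against 1.97 to 5.55 CPM (edgeR log2 difference -1.39 ± 0.475 SE, adjusted p = 0.132, and -1.27 without replicate 4). Cnr1, the cannabinoid receptor CB1, was at 62.1, 81.1, 56.9 and 62.3 CPM in Con and at 50.4, 35, 59.5 and 8.47 CPM in MPTP-Veh (log2 fold change -0.77, 95% interval -1.51 to -0.03; exact permutation p = 0.0571). Without replicate 4, its lowest library, it was -0.44 (exact permutation p = 0.0857). Pparg, the receptor PPARγ, averaged 1.31 ± 0.562 and 0.748 ± 0.276 CPM (exact permutation p = 0.171, and 0.314 without replicate 4). Of 18 neurotrophic genes, 2 were higher and 1 lower at p below 0.05, and of 16 endocannabinoid and PPAR genes, 2 were higher and 3 lower, against 15.6% and 8.15% of all genes, with medians of 0.08 and -0.06. Without replicate 4 the counts were 1 and 1, and none and 3, against 5.32% and 6.8%, with medians of 0.05 and -0.15.

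The median log2 fold change was 0.01 over 17 GABAergic genes and 0.095 without replicate 4, -0.24 and -0.11 over 14 glutamatergic genes, and 0.28 and 0.11 over 13 general neuronal genes. Over 15 blood vessel genes it was 0.09 and 0.07. The median of thalamus genes had the opposite sign in the 2 fits, at -0.04 over 11 and 0.09 without replicate 4, and cerebellum genes were at -0.26 over 10 and -0.24. Nuclear long RNAs had a median of 0.37 over 11 genes and 0.16 without replicate 4. Genes of the unfolded protein response and other cell stress had a median of -0.10 over 17 and -0.12 over 18 without replicate 4. Red blood cell genes summed to 250 to 402 CPM in Con, to 241 to 376 CPM in 3 MPTP-Veh libraries and to 2525 CPM in replicate 4.

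**Figure D5:**
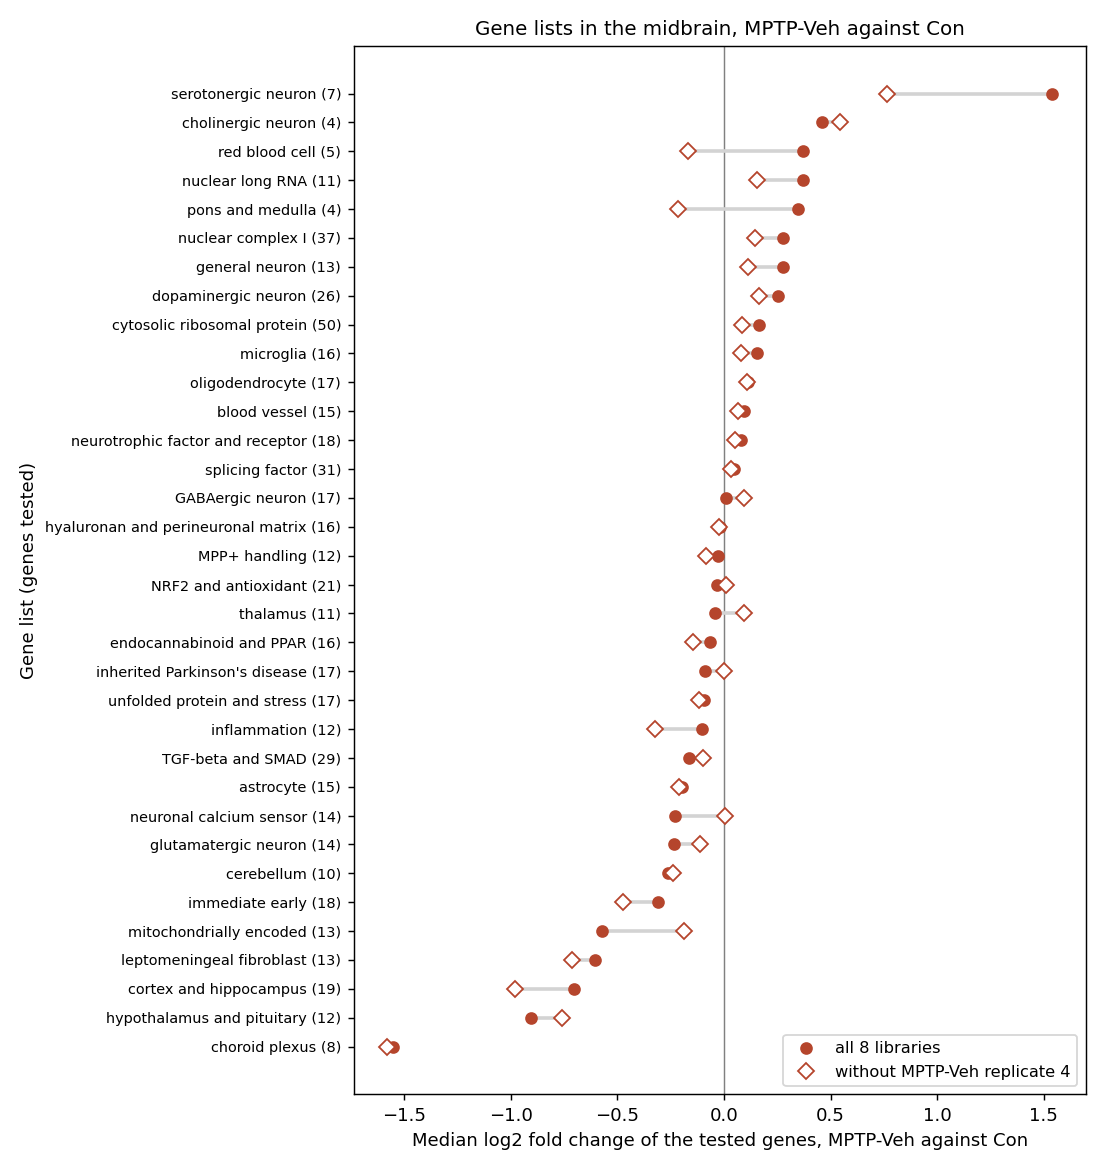
Median log2 fold change of the tested genes of each of the 34 lists, MPTP-Veh against Con, with the number of genes tested in parentheses, over all libraries (filled circles) and without MPTP-Veh replicate 4 (open diamonds). Choroid plexus genes lie at -1.55 and -1.58 and serotonergic genes at 1.54 and 0.76, whereas most other lists lie within 0.5 of 0.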

How the data were processed

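The authors deposited estimated counts per gene symbol, whole numbers for 40213 symbols, made from poly(A)-selected CORALL libraries read on a NovaSeq. The submitters' processing notes name fastp, STAR, Salmon, GATK and the build GRCm39, with versions not given in the sources used here. Totals were 11958200 to 16295834 counts in the 8 libraries. Counts were tested with edgeR 4.0.16 (R 4.3.3) by the quasi-likelihood test, with filterByExpr, TMM scaling and Benjamini-Hochberg adjustment over all genes tested, in a model of all 20 midbrain libraries. Script steps were tested on simulated data. Single values were compared by exact two-sided permutation tests. Alternatives used DESeq2 1.42.0, limma 3.58.1 with quality weights, other scalings, filters and sample sets, and each library left out in turn.

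Genes were named if past the threshold with or without MPTP-Veh replicate 4; if among the 10 higher or 10 lower genes with the smallest p at a mean of at least 1 CPM, a fold change above 1.5, no overlap and p below 0.05 without replicate 4; if among the 3 smallest p of each of 34 lists; or if on a short list of genes of the study's subject. The members and lists were chosen with earlier results of these data known. CPM are not divided by transcript length, so levels are not compared between genes. Some named genes are not reported here.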

Additional observations from a re-analysis of the deposited data

Results flagged for a closer look

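In groups of 4, a library is named here where its gap to the nearest other, over the range of its group, passed Dixon's 95% critical value, which chance alone gives in about 1 of 20 groups. This held in 45 of 226 groups checked, and 29 of the 45 were MPTP-Veh replicate 4.

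MPTP-Veh replicate 4 was the highest of its group for genes of mitochondria and redox defence: Ndufa2 at 355 CPM, Ndufa9 at 166, Park7 at 329, Chchd2 at 427 and Sod1 at 395 CPM. It was highest for the glial and matrix genes Gfap at 970, C1qa at 109, Aif1 at 17.9 and Bcan at 758 CPM, and lowest for Itgam at 5.18 CPM. Among neuronal genes it was highest for Pitx3 at 2.82, En1 at 46.3, Sncg at 192 and Gata3 at 133 CPM, and it also led Jund at 487, Gm20172 at 5.27, TrnK at 67.8, TrnQ at 60.1 and Atp6v0c-ps2 at 233 CPM. Its list sums were the highest for nuclear complex I at 5730 CPM, inherited Parkinson's disease at 2330, NRF2 and antioxidant at 2350, inflammation at 240, oligodendrocyte at 36600 and red blood cell at 2530 CPM. The same held for immediate early genes at 819, endocannabinoid and PPAR genes at 848, hyaluronan and perineuronal matrix genes at 1150 and cytosolic ribosomal protein genes at 16500 CPM.

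Other libraries stood out for fewer values. MPTP-Veh replicate 1 had 656 CPM of Pomc, 30.7 CPM of Prl and 819 CPM for the hypothalamus and pituitary list, and 10.3% of its counts came from the long RNA Gm26917, against 2.14% in the nearest library of its group. MPTP-Veh replicate 3 had the highest Bdnf of its group, at 22.1 CPM. Con replicate 2 was highest for Ddn at 251 CPM, Egr4 at 2.74 CPM, and the glutamatergic, endocannabinoid and PPAR, and inflammation lists at 2350, 750 and 158 CPM. Con replicate 3 had 6.26 CPM of Pomc and 511 CPM for the hypothalamus and pituitary list. Con replicate 4 had the lowest Sgk1, at 45.9 CPM, and the highest Ucn, at 0.428 CPM. Con replicate 1 had the highest NRF2 and antioxidant sum, at 1730 CPM, and the highest Prl, at 0.0637 CPM. Prl was at 0 in the other Con libraries, so that its gap is the whole range of the group by construction and the chance rate given above does not hold for it.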

How the results depend on the processing

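With all 8 libraries, 3 genes were called lower and none higher. Leaving out each library in turn gave 0 to 266 genes lower and 0 to 827 higher, both upper values without MPTP-Veh replicate 3, and 11 lower without Con replicate 3. Without MPTP-Veh replicate 3, MPTP-Veh replicate 4 was the extreme library of 806 of the 822 higher and 210 of the 264 lower genes that also passed the original filter, and 362 and 248 of them had an unadjusted p below 0.05 in the same direction without it. The count of lower genes was 0 with library size alone, 0 with no filter on low counts, 0 with the 8 libraries alone, and 1 with the 7 libraries alone without MPTP-Veh replicate 4. DESeq2 called 157 lower and 289 higher, and limma-voom with quality weights 71 lower and 19 higher. RLE size factors, removal of mitochondrially encoded genes and the omission of the fold limit each gave 3, and a minimum of 10 counts in every library gave 4. With the replicate number as a block, 0 genes were called lower. Same-numbered libraries correlated at 0.0479 to 0.106 in their deviations from the group means, and different-numbered libraries at -0.14 to 0.101. Not every library correlated best with its own number, so the numbers were not taken as pairs. Hpcal4, Cemip and Smad3 were each called in 7 of 18 alternatives, with adjusted p from 1.648e-05, 0.0001585 and 6.308e-06 to 0.4916, and below 0 in log2 fold change in all 18. Shisa7 was called in 2 of the 18, with adjusted p from 0.0006683 to 0.4916 and a log2 fold change from -0.656 to -0.47. The mitochondrial percent differed by -5.46 points, and by -7.22 to -2.38 with single libraries left out. The log2 fold change of Th ran from -0.0487 (with quality weights) to 0.743 over the 18 alternatives. That of Slc6a3 ran from -0.52 to 0.0172 with single libraries left out, above 0 without MPTP-Veh replicate 1. That of Gfap ran from -0.246 (without MPTP-Veh replicate 4) to 0.702, and was -0.254 in the 7 libraries alone and -0.246 with quality weights. That of Mapk14 ran from -0.164 (without MPTP-Veh replicate 4) to 0.31, and was -0.172 in the 7 libraries alone and -0.145 with quality weights. The cause of these shifts was not tested. Of the values of named genes under alternatives, 1228 kept their direction and side of the threshold, 98 passed it, 33 no longer did and 8 changed sign.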
